A study of Mus musculus with 37 samples.

Results

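HFPO-DA (hexafluoropropylene oxide dimer acid, the short-chain polyfluoroalkyl acid also known as GenX) was given to CD1 mice, and the livers of the male mice at 5 mg/kg were compared here with those of the male mice at 0.5 mg/kg. This last dose step is a 10-fold rise in dose, and the comparison separates genes that were still climbing or falling over it from genes that had already moved at 0.5 mg/kg and then stayed within 2-fold. It rests on 9 of the 37 mice of the series, 4 at 5 mg/kg and 5 at 0.5 mg/kg, taken from the treatment and sex that the submitters recorded. All were wild-type sires of the F0 generation of an outbred stock, about 6 weeks old at the start, and received the compound in deionized water by oral gavage once a day for 84 to 85 doses (70 days before mating and 14 days of mating). The 5 male mice on vehicle alone were handled the same way and are used to describe the step from 0 to 0.5 mg/kg. The 8 female mice given either of these doses were used to test whether the step differed between the sexes. They were dams, older at the start than the male mice, that received 53 to 65 doses and were sampled at weaning. Sex, age, reproductive state and number of doses therefore cannot be told apart. Female mice on vehicle are used to choose the genes called at 0.5 mg/kg in female mice. The male and female mice given 0.1 mg/kg are not compared here. They enter the models fitted below and share in the estimate of the spread.

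RNA was read from scraped sections of fixed, paraffin-embedded liver by TempO-Seq, in which pairs of short probes are ligated on their target transcript, amplified and counted. Because each value comes from a piece of whole liver, fewer cells of a type and less RNA per cell cannot be told apart. PPARα (peroxisome proliferator-activated receptor alpha) is a fatty acid sensor of the hepatocyte that binds DNA together with a retinoid X receptor and switches on the enzymes that import, activate and oxidize fatty acids in peroxisomes and mitochondria, and ω-hydroxylate them at the endoplasmic reticulum. In rodents its activators enlarge the liver and multiply its peroxisomes. Many hepatocyte genes outside lipid metabolism, such as those for plasma proteins, bile acid synthesis and drug metabolism, are known to be lowered by such compounds.

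Total counts ranged from 2608954 to 10548222 in the male mice at 0.5 mg/kg and from 2101495 to 9098192 at 5 mg/kg, with 1 shallow library in each group (mouse 2 at 0.5 mg/kg, 2608954 counts, and mouse 3 at 5 mg/kg, 2101495 counts). Mice are numbered within a group in accession order, and values are listed in that order. Spearman correlations between mice of the same group, over probes, ranged from 0.784 to 0.895 at 0.5 mg/kg and from 0.754 to 0.859 at 5 mg/kg. The Y-linked gene Ddx3y had counts in all 9 mice. Levels are given as CPM (counts per 1000000 of the TMM-normalized library), read on 1 probe per gene, in general the one with the most counts. For the genes with the largest changes it was chosen among the probes that passed both fits. For the genes at plateau it was chosen among the probes called at 0.5 mg/kg. Genes that differed between the sexes or were chosen in female mice were read on the probe with the smallest p there. The spread between mice of a group was larger in male mice (median SD of log2 CPM over probes 1.31) than in female mice (0.617), and a single model over all mice averages the spreads. A gene is therefore said to have risen or fallen only where edgeR's quasi-likelihood test gave at least 1 of its probes an adjusted p under 0.10 (Benjamini-Hochberg) both in the fit to all 37 mice and in the fit to male mice alone. Some genes had 0 or next to 0 counts in all mice of 1 dose group. Among these 9 mice they could pass the filter on low counts only through the other group. Their calls are given as a description. Where 2 adjusted p values are given for a gene, the first is from the fit to all mice and the second from the fit to male mice.

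In the fit to all mice, 545 of 13004 genes had a raised probe over the last step (4.19%) and 917 had a lowered one (7.05%). Both fits together left 129 raised genes of 11389 tested in both (1.13%) and 333 lowered genes (2.92%). For the highest-count probe, every male mouse at 5 mg/kg lay above every male mouse at 0.5 mg/kg for 294 genes (2.26%) and below for 368 (2.83%). Raised genes made up 27.9% of the calls under both fits, and 39.4% when DESeq2's size factors replaced TMM (195 raised and 300 lowered). The counts also moved with the shallow libraries. Without the 2 shallow mice, 79 genes were raised and 243 lowered, of which 67 and 193 were among those called with all 9 mice. Without mouse 3 at 5 mg/kg alone the counts were 77 and 207, and without mouse 1 at 0.5 mg/kg the number raised was 83.

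Most genes that moved over the last step had not been called at the step before it. Of the 129 raised genes, 25 were also called between vehicle and 0.5 mg/kg in the fit to all mice, and of the 333 lowered genes 3 were. Of all genes tested, 0.815% were called at that step. The median log2 change over the last step was 1.2 for the raised genes, with the middle 50% from 0.86 to 1.76, against 0.13 over the step from vehicle to 0.5 mg/kg. For the lowered genes it was -1.15 over the last step, from -1.61 to -0.83, against -0.10 over the first. The change over the last step exceeded 2-fold in 68 raised and 171 lowered genes. The medians over the last step restate how these genes were chosen. Both steps use the same 5 male mice at 0.5 mg/kg, so they are given side by side and not related to each other.

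The stretches of promoter below were picked among the genes called in both fits whose window held a match, with Plin2, Fabp1 and Ucp3 for the raised PPARα targets and F7 and Cyp2c29 for the lowered genes, to show what such a match looks like. The windows of Ehhadh, Aldh3a2 and Acot2, raised genes described below, held none. PPARα and its partner are known to bind 2 copies of AGGTCA spaced by 1 base. Capitals mark the stretch closest to 2 copies of AGGTCA with 1 base between them, with at most 2 of 12 letters differing, read on either strand. Sequences are from RefSeq promoters of build GRCm38.p6, on the strand of the gene.
Plin2 (chr4:86670248-86670308, minus strand): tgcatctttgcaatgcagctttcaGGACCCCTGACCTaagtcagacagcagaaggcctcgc
Fabp1 (chr6:71199788-71199848, plus strand): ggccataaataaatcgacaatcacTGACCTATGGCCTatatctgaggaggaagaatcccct
Ucp3 (chr7:100472916-100472976, plus strand): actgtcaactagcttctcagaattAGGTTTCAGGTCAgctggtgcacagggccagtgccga
F7 (chr8:13025976-13026033, plus strand): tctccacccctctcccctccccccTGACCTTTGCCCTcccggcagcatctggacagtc
Cyp2c29 (chr19:39286907-39286967, plus strand): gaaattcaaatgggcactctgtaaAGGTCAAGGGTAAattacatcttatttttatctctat
The match reads on the opposite strand in Plin2, Fabp1 and F7, with 1 differing letter in Fabp1 and F7 and 2 in each of the others. Of 27025 promoter windows of 300 bases, 3.81% held such a match, as did 3.31% of the 9950 windows of genes tested here. A match was found in 7 of the 101 windows of raised genes (6.93%) and in 12 of the 257 windows of lowered genes (4.67%). It is a likeness of letters and not a measured binding site.

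Enzymes of peroxisomes and of ω-hydroxylation were among the genes that climbed at both steps. Ehhadh, the bifunctional enzyme of peroxisomal β-oxidation (chr16:21761287-21787807), had 1764, 2254, 2227, 5297 and 1521 CPM at 0.5 mg/kg and 11760, 15320, 10919 and 13666 CPM at 5 mg/kg. Mouse 4 at 0.5 mg/kg stood far above the other 4, yet the groups did not overlap. The mean was 283 ± 92.8 CPM (SD, n = 5) on vehicle, 2613 ± 1532 (SD, n = 5) at 0.5 mg/kg and 12916 ± 1972 (SD, n = 4) at 5 mg/kg, and the last step came to 4.94-fold (log2 change 2.31, standard error 0.26, edgeR adjusted p = 1.38e-07 and 1.98e-05). Aldh3a2, which oxidizes fatty aldehydes (chr11:61223417-61267464), had 1624, 2283, 2043, 3014 and 1601 CPM at 0.5 mg/kg against 7386, 8065, 6827 and 8555 at 5 mg/kg. Here too the groups were apart, at 3.65-fold (log2 change 1.87, standard error 0.23, edgeR adjusted p = 7.19e-07 and 1.45e-05).

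Of 28 genes of peroxisomal β-oxidation tested in both fits, 3 rose, Ehhadh and the thiolase Acaa1b among them, and 3 fell by at least 1 probe, with a median log2 change of 0.36 where all genes tested had -0.04. Among those that fell were Pecr, a reductase of enoyl-CoA, from 46.9 ± 6.66 to 11.8 ± 9.54 CPM, and Phyh, which starts the breakdown of phytanic acid, from 341 ± 76.1 to 198 ± 17.9 CPM (SD, n = 5 and 4). No peroxin, the proteins that assemble peroxisomes, passed both fits (0 of 15 raised and 0 lowered, median 0.29). In the ω-hydroxylation list 4 of 13 rose and 1 fell. Those that rose were Aldh3a2, Cyp4a10, Cyp4a31 and Cyp4a32, and Cyp4v3 fell. Cyp4a10 went from 660 ± 334 to 2533 ± 505 CPM (SD, n = 5 and 4; 3.83-fold, edgeR adjusted p = 0.0169 and 0.0809). Without the 2 shallow mice 1 of these 4 calls was left. Its paralog Cyp4a14 had 395, 286, 420, 733 and 354 CPM at 0.5 mg/kg and 941, 1037, 924 and 998 at 5 mg/kg, with all 4 mice above all 5, and did not pass (2.23-fold, edgeR adjusted p = 0.232 and 0.482). The probes of the Cyp4a family may catch transcripts of neighbouring members, so the split between them is uncertain.

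**Figure D1:**
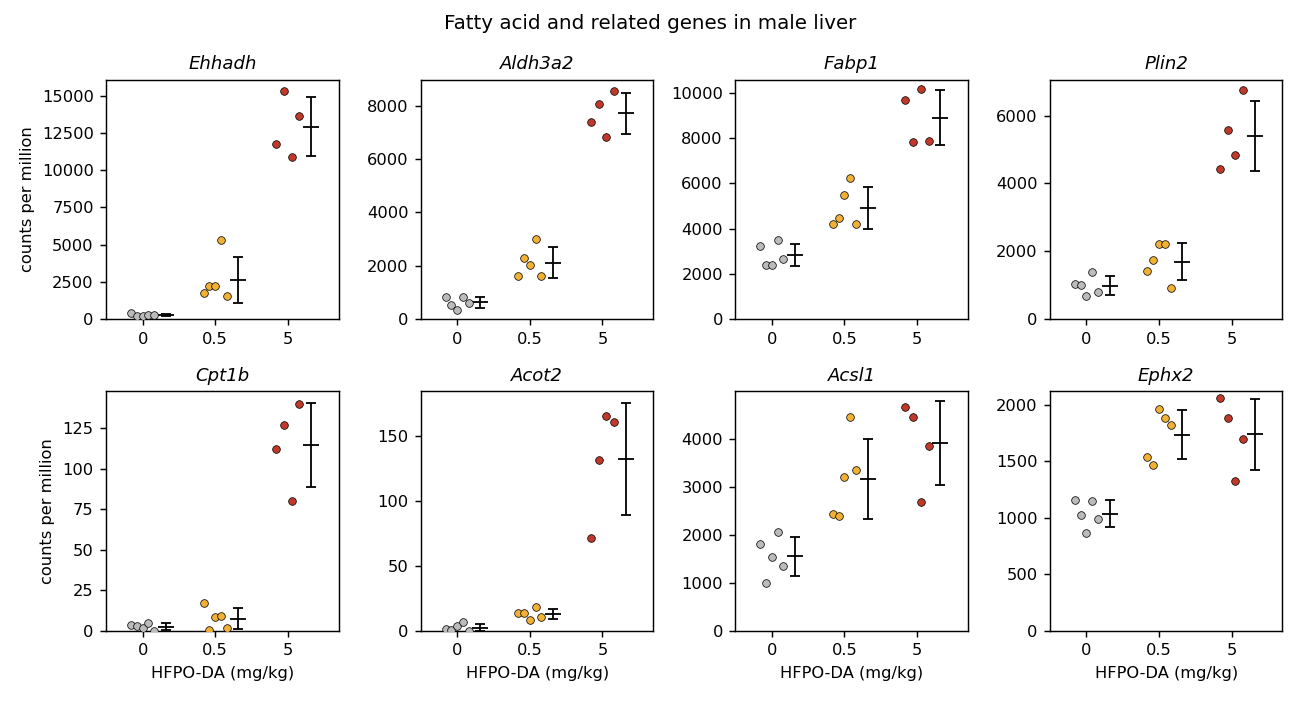
CPM of 8 genes in each male mouse (points) at 0, 0.5 and 5 mg/kg, with 5, 5 and 4 mice; the horizontal lines give the mean and the whiskers the SD. Ehhadh, Aldh3a2, Fabp1, Plin2, Cpt1b and Acot2 are higher in every mouse at 5 mg/kg than in every mouse at 0.5 mg/kg, while Acsl1 and Ephx2 overlap between these doses.

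In mitochondria, 6 of 25 genes of β-oxidation, the carnitine shuttle and ketogenesis rose and 0 fell (24% raised, where 1.13% of all genes were). Cpt1b, the muscle form of the enzyme that hands fatty acids to carnitine (chr15:89416405-89425863), had 16.9, 0.754, 8.39, 9.13 and 1.69 CPM at 0.5 mg/kg and 112, 127, 79.9 and 140 CPM at 5 mg/kg. Every mouse at the higher dose was well above the highest at the lower one (15.1-fold, log2 change 3.92, standard error 0.63, edgeR adjusted p = 0.000151 and 0.000807). Its liver counterpart Cpt1a had 11.2 ± 6.12 CPM at 0.5 mg/kg and 10.7 ± 7.51 at 5 mg/kg (SD, n = 5 and 4; edgeR adjusted p = 0.966 and 0.986), with a 95% interval of the log2 change from -0.99 to 0.83. Acot2, a mitochondrial thioesterase that frees fatty acids from coenzyme A, had 13.5, 14.0, 8.51, 18.3 and 10.4 CPM at 0.5 mg/kg and 71.7, 132, 166 and 161 at 5 mg/kg (10.2-fold, edgeR adjusted p = 0.000607 and 0.00153). The acyl-CoA dehydrogenases Acadm and Acadl, the reductase Decr1 and the β-subunit Hadhb of the trifunctional protein also rose, by log2 changes of 0.77, 0.80, 0.80 and 1.13.

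The genes of fatty acid uptake, binding, activation and storage gave 11 raised of 34 and 0 lowered (32.4% raised), with a median log2 change of 0.68 over the last step and 0.39 over the step before. Plin2, which coats lipid droplets (chr4:86648386-86670060), had 1417, 1730, 2218, 2211 and 913 CPM at 0.5 mg/kg and 4420, 5574, 4827 and 6751 CPM at 5 mg/kg. No mouse at 5 mg/kg came near the lower group (3.18-fold, log2 change 1.67, standard error 0.26, edgeR adjusted p = 3.5e-05 and 0.000281). Fabp1, the fatty acid carrier of the hepatocyte (chr6:71199827-71205023), had 4187, 4462, 5464, 6236 and 4178 CPM at 0.5 mg/kg against 9675, 7833, 10173 and 7864 at 5 mg/kg, again without overlap (1.81-fold, edgeR adjusted p = 0.00311 and 0.00537). Hsd17b11, a dehydrogenase found on lipid droplets, rose 3.0-fold, and Mgll, which cleaves monoglycerides, 3.16-fold. The fatty acid importers Slc27a1 and Slc27a4, the acyl-CoA synthetase Acsl5 and the thioesterase Acot1 rose as well. The probe pairs of Acot1 and Acot2 belong to paralogs and may share reads.

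Carriers best known from muscle, heart and fat also appeared in this list. Fabp3 had 0.322, 0, 0, 0 and 0 CPM at 0.5 mg/kg and 39.9, 27.4, 27.4 and 51.3 CPM at 5 mg/kg (edgeR adjusted p = 8.97e-07 and 1.98e-05), and since the lower group held so few counts no fold is given. Fabp4 went from 22.7 ± 17.9 to 217 ± 87 CPM (SD, n = 5 and 4; log2 change 3.25, standard error 0.48, edgeR adjusted p = 3.05e-05 and 3.87e-05). Cidea, which enlarges lipid droplets, had 0 counts in all 5 mice at 0.5 mg/kg and 4.49, 6.17, 3.37 and 3.25 CPM at 5 mg/kg. Fabp4 and Cidea are also on the marker list of adipocytes, whose summed level was 16.2 to 68.2 CPM at 0.5 mg/kg and 161 to 474 CPM at 5 mg/kg. Nearly all of that sum was Fabp4, with 16.2 to 67.6 and 158 to 471 CPM over its 2 probes. Only these 2 of the 6 genes on the list passed the filter on low counts, and both rose. Among these 9 mice Cidea could pass that filter only through the group at 5 mg/kg, so the 2 calls are given as a description. Of the defining adipocyte genes, Plin1 and Lep had 0 counts in all 9 mice, and Adipoq and Retn had 0 at 5 mg/kg. Cd36, the fatty acid translocase, had 121, 76.6, 122, 162 and 45.3 CPM at 0.5 mg/kg and 267, 256, 258 and 269 at 5 mg/kg. The 4 mice at 5 mg/kg lay above the other 5, but the gene passed in the fit to all mice alone (2.48-fold, edgeR adjusted p = 0.0661 and 0.194).

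Among 20 other known PPARα targets, 3 rose and 0 fell, and the median log2 change was 1.03. Ucp2, a carrier of the inner mitochondrial membrane, went from 47.3 ± 11.1 to 226 ± 53.8 CPM (SD, n = 5 and 4; log2 change 2.25, standard error 0.25, edgeR adjusted p = 1.35e-07 and 6.77e-06). Its relative Ucp3 had 0 counts in all 5 mice at 0.5 mg/kg and 6.37, 11.5, 7.88 and 11.3 CPM at 5 mg/kg, which is at least 103-fold higher than the 3 counts taken as the floor over the summed libraries of the lower group (edgeR adjusted p = 0.00344 and 0.0146). Between these doses Ucp3, like Fabp3, could pass the filter on low counts only through the group at 5 mg/kg, so its call is a description. Pdk4, which restrains glucose oxidation, had 3.15 ± 2.78 and 31.6 ± 7.81 CPM (SD, n = 5 and 4) and passed in the fit to all mice alone (edgeR adjusted p = 0.0345 and 0.12). Fgf21, a hormone of fasting, had 2.74, 0, 1.60, 0 and 0 CPM at 0.5 mg/kg and 0, 7.50, 15 and 0 at 5 mg/kg, so the groups overlapped (edgeR adjusted p = 0.392 and 0.696). The receptor's own transcript Ppara had 61.6 ± 14.0 and 41.8 ± 8.89 CPM and its partner Rxra 1201 ± 137 and 1026 ± 230 CPM (SD, n = 5 and 4), and neither passed (edgeR adjusted p = 0.156 and 0.29 for Ppara, 0.448 and 0.688 for Rxra).

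Further raised genes with the largest changes lay outside these lists. Sptlc3, a subunit of the enzyme that starts sphingolipid synthesis, had 0, 0, 0.617, 1.03 and 0 CPM at 0.5 mg/kg and 39.1, 48.7, 33.8 and 15.9 CPM at 5 mg/kg (85.9-fold, log2 change 6.43, standard error 1.16, edgeR adjusted p = 0.00216 and 0.000657). Ly6d, a membrane protein known as a marker of lymphoid and epithelial progenitors, had 0.161, 0.377, 0.247, 0.410 and 10.1 CPM against 72.6, 104, 182 and 194 CPM (59.1-fold, edgeR adjusted p = 0.00537 and 0.0114). Both were near 0 in most mice at 0.5 mg/kg and present in all 4 at 5 mg/kg. Cox6b2, an isoform of a cytochrome c oxidase subunit known from testis, rose 13.5-fold from 2.16 ± 1.32 to 29 ± 9.75 CPM (SD, n = 5 and 4), and Aqp3, a channel for water and glycerol, 17.3-fold from 1.35 ± 2.92 to 25.4 ± 13 CPM. Anxa13 and Phospho1 were raised 15.3-fold and 15.2-fold. Without the 2 shallow mice these 4 genes no longer passed both fits, while their log2 changes moved little, from 3.76 to 3.62 for Cox6b2, from 4.11 to 3.66 for Aqp3, and from 3.93 to 3.82 and 3.64 for Anxa13 and Phospho1. Camk2d had 0 counts in all 5 mice at 0.5 mg/kg and 3.64 to 7.50 CPM at 5 mg/kg, at least 57.2-fold higher, and it too missed the fit to male mice without the shallow libraries (edgeR adjusted p = 0.115). It had been called as lowered from vehicle to 0.5 mg/kg in the fit to all mice, so its rise over the last step went back on that fall.

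Genes of fat synthesis moved in both directions. Of 26 tested, 3 rose and 2 fell. The desaturases Scd1 and Scd2 rose by log2 changes of 1.58 and 2.54, and malic enzyme Me1, a source of NADPH, by 1.76 from 165 ± 63.0 to 560 ± 122 CPM (SD, n = 5 and 4). Lpin1, a phosphatidate phosphatase, fell from 479 ± 304 to 102 ± 64.7 CPM and Dgat2, which makes triglyceride, from 362 ± 69.4 to 203 ± 58.5 CPM. Of 25 genes of cholesterol synthesis and uptake, 1 rose (Pmvk) and 1 fell, and without the 2 shallow mice neither call was left.

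Genes of bile acid synthesis and transport fell over the last step. Of 25 tested, 9 fell and 0 rose (36% lowered, where 2.92% of all genes were), with a median log2 change of -0.60 over the last step and 0.01 over the step before, where 2 members, the exporters Abcc2 and Abcc4, were called as raised in the fit to all mice. Akr1d1, the reductase that shapes the steroid ring (chr6:37530173-37568815), had 84.5, 58.8, 74.1, 91.4 and 95.5 CPM at 0.5 mg/kg and 11.1, 25.3, 26.6 and 15.8 CPM at 5 mg/kg, while the vehicle mean was 85.8 ± 23.8 CPM (SD, n = 5). Every mouse at 5 mg/kg was below every other (4.13-fold lower, standard error 0.24 on the log2 scale, edgeR adjusted p = 7.19e-07 and 2.36e-05). Slc10a1, which carries bile acids from blood into the hepatocyte (chr12:80953183-80968705), had 383, 277, 286, 239 and 187 CPM against 113, 153, 61.1 and 86.7 CPM (2.65-fold lower, edgeR adjusted p = 3.79e-05 and 0.000281). The hydroxylases Cyp7b1 and Cyp27a1, the reductase Akr1c6, the conjugating enzymes Baat and Slc27a5 and the importer Slco1b2 fell too. Cyp7a1, the rate-limiting enzyme of bile acid synthesis, had 42.9, 117, 76.5, 178 and 546 CPM against 82.8, 54.6, 25.9 and 40.8 CPM. Its groups overlapped, mouse 5 at 0.5 mg/kg was far above the others, and the call (log2 change -1.91, edgeR adjusted p = 0.0741 and 0.0656) was not kept without the 2 shallow mice, where the log2 change was -1.85. Cyp8b1 had 795 ± 180 and 603 ± 228 CPM (SD, n = 5 and 4; edgeR adjusted p = 0.704 and 0.627).

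**Figure D2:**
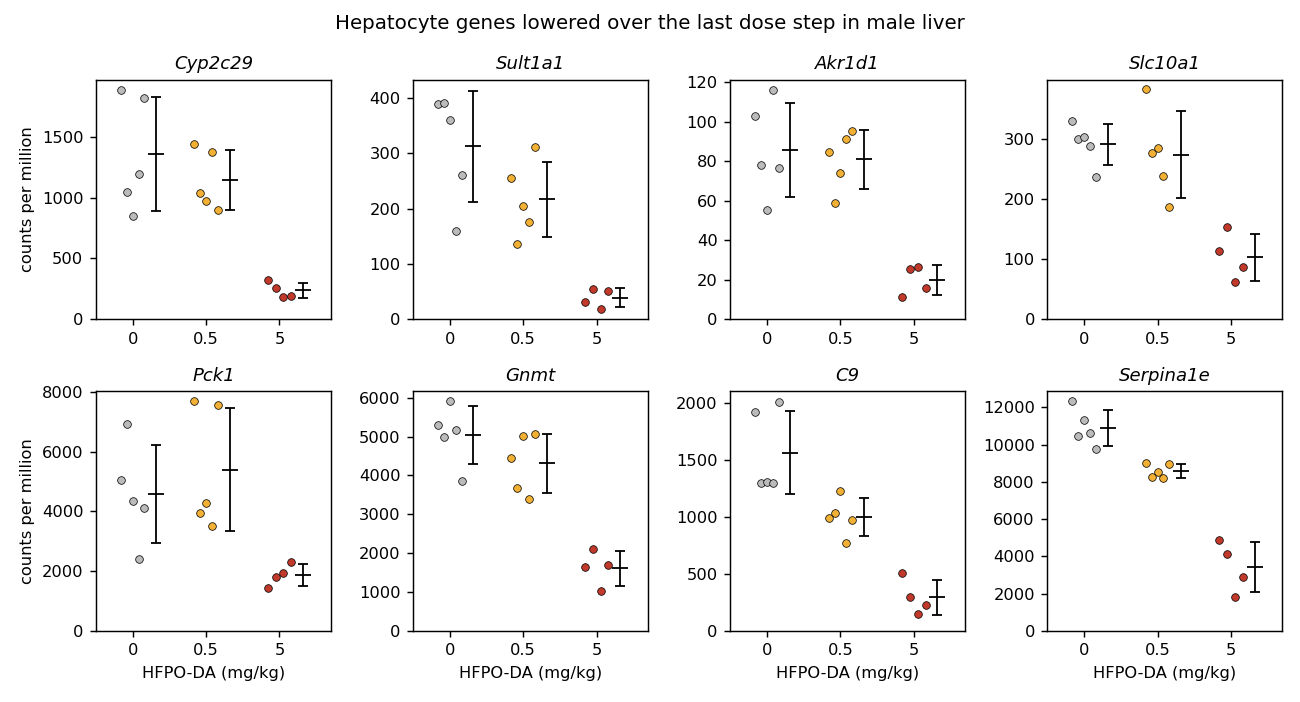
CPM of 8 lowered genes in each male mouse (points) at 0, 0.5 and 5 mg/kg, with 5, 5 and 4 mice; the horizontal lines give the mean and the whiskers the SD. For each gene the 4 mice at 5 mg/kg lie below the 5 at 0.5 mg/kg, and for Akr1d1 and Slc10a1 the means on vehicle (85.8 and 292 CPM) and at 0.5 mg/kg (80.9 and 274 CPM) are close.

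Plasma proteins that the liver secretes fell across several systems. In complement, 10 of 31 genes fell and 0 rose (32.3% lowered), and 6 did without the 2 shallow mice. C9, which forms the pore of the membrane attack complex (chr15:6445327-6498751), had 989, 1037, 1224, 769 and 971 CPM at 0.5 mg/kg and 507, 299, 144 and 225 CPM at 5 mg/kg, with no overlap (3.39-fold lower, log2 standard error 0.25, edgeR adjusted p = 2.02e-05 and 0.000136). C8a and C8b of the same complex, C6, Hc (complement C5), C1s1, C4b and the inhibitors Cfi and Serping1 also fell. In coagulation and fibrinolysis 9 of 30 fell and 0 rose (30%). Factor XI (F11) went from 70.5 ± 24.2 to 23.8 ± 7.18 CPM, factor VII (F7) from 93.9 ± 25.1 to 34.4 ± 16.1 CPM and factor V (F5) from 79.0 ± 10.1 to 35.1 ± 20.7 CPM (SD, n = 5 and 4). Of 24 acute phase proteins 4 fell and 0 rose, with a median log2 change of -0.71 over the last step and -0.74 over the step before it. The median of the first step rested on vehicle mouse 2, which stood far above the other 4 vehicle mice in several of these genes, and was 0.01 without it. Saa2, a serum amyloid A, had 41912 CPM in that mouse and 26.9 to 93 CPM in the others, Orm2, an orosomucoid, 3016 against 5.28 to 12.7 CPM, and Lcn2, a lipocalin, 1119 against 1.33 to 6.96 CPM. The 4 that fell over the last step were Crp, Itih4, Serpina3k and Serpina3n. Of 28 apolipoproteins and plasma carriers 9 fell and 0 rose. Apoa1, the main protein of HDL, went from 19098 ± 3259 to 10726 ± 1619 CPM and Apom from 20.7 ± 5.93 to 6.84 ± 3.81 CPM (SD, n = 5 and 4). Without the 2 shallow mice 3 of these apolipoprotein calls were left. Alb, the albumin gene, had 6679 ± 994 and 6270 ± 566 CPM (SD, n = 5 and 4; edgeR adjusted p = 0.833 and 0.915), with a 95% interval of the log2 change from -0.42 to 0.24.

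Enzymes of drug metabolism fell as well. Of 39 P450 genes of families 1 to 3, 9 fell and 2 rose, and members of the Cyp2c family were on either side of the threshold. Cyp2c29 (chr19:39269405-39330713) had 1442, 1036, 972, 1374 and 899 CPM at 0.5 mg/kg and 321, 253, 181 and 193 CPM at 5 mg/kg (4.83-fold lower, log2 standard error 0.21, edgeR adjusted p = 8.66e-09 and 8.49e-07). Its 5 mice at 0.5 mg/kg were spread around the vehicle mean of 1360 ± 470 CPM (SD, n = 5), and all 4 at 5 mg/kg were below. Cyp2c54 had 2380, 1369, 1723, 1148 and 1246 CPM against 92.4, 420, 73.1 and 76.9 CPM (9.45-fold lower), and Cyp2c50 went from 26.6 ± 11.4 to 1.97 ± 1.80 CPM (11.6-fold lower). These paralogs lie close together on chromosome 19, and their probes may share reads. Cyp2c70, Cyp2d22, Cyp2d26, Cyp1a2, Cyp2e1 and Cyp2f2 fell too. Cyp2b10, the known target of the receptor CAR, had 124, 23, 8.39, 35.6 and 131 CPM at 0.5 mg/kg and 36.3, 13.8, 13.5 and 12.4 CPM at 5 mg/kg, with overlapping groups (edgeR adjusted p = 0.0835 and 0.2).

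Of 47 conjugation enzymes 11 fell and 1 rose. Sult1a1, a sulfotransferase of phenols (chr7:126672865-126676432), had 255, 136, 205, 176 and 311 CPM against 30.9, 55.3, 18.8 and 51.6 CPM (5.47-fold lower, edgeR adjusted p = 1.35e-07 and 1.34e-05), with the groups apart. Ugt2b1, Sult1b1, Gstp1, Gsta3 and Ugt2a3 fell too, whereas Ugdh, which makes the UDP-glucuronate used in conjugation, rose from 2261 ± 560 to 4215 ± 828 CPM (SD, n = 5 and 4). Of 36 NRF2 targets and peroxide scavengers 5 rose and 1 fell, and without the 2 shallow mice 3 rose and 0 fell. The ferritin chains Fth1 and Ftl1, the carbonyl reductase Cbr1, Me1 and Ugdh rose, with log2 changes from 0.57 to 1.76.

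Genes known to be higher in male than in female mouse liver showed the lowest median of the 28 lists. Of 25 tested 14 fell and 0 rose (56.0% lowered), with a median log2 change of -1.29 over the last step and 0.07 over the step before. Serpina1e, a form of α1-antitrypsin (chr12:103946931-103958975), had 9005, 8274, 8535, 8204 and 8965 CPM at 0.5 mg/kg and 4876, 4144, 1821 and 2916 CPM at 5 mg/kg. The lower-dose mice differed little among themselves, and the higher-dose mice were all below them (2.5-fold lower, log2 standard error 0.18, edgeR adjusted p = 5.88e-06 and 0.000281). The major urinary proteins Mup3, Mup7, Mup12, Mup20 and Mup21 fell, though their near-identical sequences leave the split between members uncertain, and so did Cyp7b1, Selenbp2, C6, C8a and C8b, which other lists hold in part. Of 22 genes known to be higher in female liver 3 rose and 0 fell (13.6%), namely Cyp2a4, Cyp2b9 and Hao2, and 1 did without the 2 shallow mice. Cyp2b9 had 5.80, 3.02, 3.95, 4.21 and 0.307 CPM at 0.5 mg/kg and 70.5, 34.6, 23.6 and 45.6 CPM at 5 mg/kg, with the groups apart (12.4-fold, edgeR adjusted p = 3.53e-07 and 0.00263).

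The urea cycle and amino acid catabolism had the largest number of lowered genes of any list, 19 of 52 with 0 raised (36.5% lowered), of which 11 calls were made without the 2 shallow mice. Gnmt, which uses up the methyl donor S-adenosylmethionine (chr17:46725664-46729168), had 4438, 3679, 5008, 3387 and 5057 CPM at 0.5 mg/kg and 1633, 2101, 1019 and 1695 CPM at 5 mg/kg (2.68-fold lower, edgeR adjusted p = 1.11e-05 and 0.000172). Tat, which starts tyrosine breakdown, had 50.1, 13.6, 22.6, 30 and 92.0 CPM against 3.54, 5.85, 8.63 and 4.64 CPM (7.53-fold lower, edgeR adjusted p = 0.000386 and 0.0025). Neither gene overlapped between the groups. The urea cycle enzymes Otc, Asl and Ass1 fell by 1.53, 1.49 and 1.16 on the log2 scale, and Hal, Hpd, Prodh, Bhmt and Cth, which break down histidine, tyrosine, proline, betaine and cystathionine, fell too.

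Of 27 genes of glucose metabolism 5 fell and 0 rose. Pck1, the gatekeeper of gluconeogenesis (chr2:173153048-173159273), had 7701, 3935, 4271, 3510 and 7563 CPM at 0.5 mg/kg and 1442, 1794, 1948 and 2304 CPM at 5 mg/kg, again without overlap (2.88-fold lower, edgeR adjusted p = 0.00633 and 0.00145). Slc37a4, which moves glucose 6-phosphate, and the fructokinase Khk fell as well. Of 24 genes that mark the pericentral or periportal zone 9 fell and 0 rose, with a median log2 change of -0.73. They include pericentral Cyp2e1 and Cyp1a2 and periportal Ass1, Hal, Pck1 and Cyp2f2. A list of 37 nuclear receptors, other transcription factors of the liver and growth hormone signalling had 3 that fell and 0 that rose, the cell-surface receptor of growth hormone, Ghr, from 105 ± 25 to 52.7 ± 20.5 CPM and the pioneer factor Foxa3 from 223 ± 22.1 to 117 ± 35.9 CPM among them (SD, n = 5 and 4).

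The remaining lists held few calls under both fits. Of 49 genes of oxidative phosphorylation and the citric acid cycle 1 rose (Idh2, from 141 ± 32.7 to 281 ± 40.7 CPM) and 1 fell, of 36 proteasome subunits 1 rose (Psmb6), and of 25 interferon-stimulated genes 0 moved either way. Of 32 genes of the endoplasmic reticulum stress response 5 fell and 0 rose, Herpud1 and the chaperones Hsp90b1 and Pdia6 among them, and 2 did without the 2 shallow mice. Of 34 p53 targets and apoptosis genes 2 rose and 1 fell. The 2 were Bax, from 63.6 ± 3.99 to 124 ± 19.8 CPM, and Apaf1, with 0 counts in all 5 mice at 0.5 mg/kg, and the 1 was Bbc3, which had 13.1 ± 4.22 and 1.58 ± 2.28 CPM (SD, n = 5 and 4). Apaf1 had 3.54 ± 2.56 CPM on vehicle and 4.19 ± 0.542 at 5 mg/kg (SD, n = 5 and 4), so its rise was a return to the vehicle level. Of 35 cell cycle genes tested in both fits 1 rose and 1 fell. In the fit to all mice 45 passed the filter, with a median log2 change of 1.26. Of these, 11 had a raised probe and 2 a lowered one in that fit, where 4.19% and 7.05% of all genes did. In 5 of them every male mouse at 5 mg/kg lay above every one at 0.5 mg/kg, where 2.26% of all genes did. Most of these genes were near 0 counts, and 8 of the 45 had at most 3 counts in a whole group. Mki67, the marker of dividing cells, had 0.161, 0, 0, 0.103 and 0 CPM at 0.5 mg/kg and 0, 1.32, 6.0 and 6.8 CPM at 5 mg/kg (adjusted p = 0.112 by edgeR in the fit to all mice). Cdc20 rose with 0 counts in all 5 mice at 0.5 mg/kg, and Tk1 fell. Ccnd1, a cyclin of the G1 phase, had 1.54 ± 1.25 and 19.6 ± 12.1 CPM (SD, n = 5 and 4) and passed in the fit to all mice alone (edgeR adjusted p = 0.00537 and 0.107). The p53 target Cdkn1a had 4.24 ± 4.20 and 8.72 ± 9.50 CPM (edgeR adjusted p = 0.711 and 0.873).

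**Figure D3:**
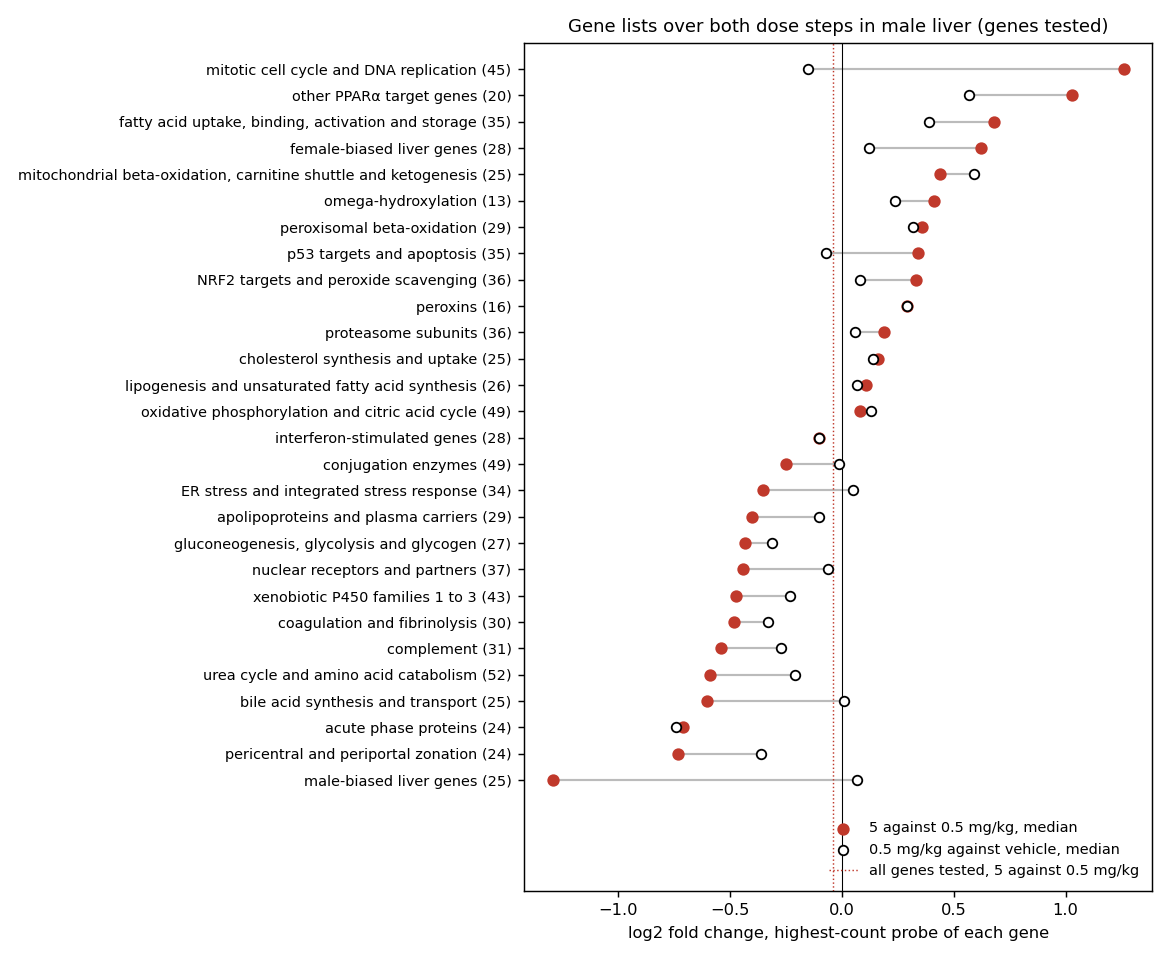
Median log2 fold change of the tested members of 28 gene lists (number in brackets) over the last dose step (filled) and over the step from vehicle to 0.5 mg/kg (open), on the highest-count probe of each gene, with genes at the count floor set to their bound; the dotted line is the median of all genes tested over the last step. Male-biased genes (-1.29 against 0.07) and bile acid genes (-0.60 against 0.01) had medians near 0 at the first step, while mitochondrial β-oxidation had 0.59 at the first and 0.44 at the last.

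Some of the genes with the largest falls outside the lists had counts in the mice at 0.5 mg/kg and next to none at 5 mg/kg. Gm10681 had 73.3, 29.8, 125, 122 and 26.1 CPM against 6.13, 0, 0.375 and 0.155 CPM (51.2-fold lower, edgeR adjusted p = 4e-05 and 3.87e-05). Col27a1, a fibrillar collagen, had 31.3, 31.3, 23.8, 27.4 and 54.7 CPM against 8.49, 3.86, 0.750 and 4.02 CPM (7.66-fold lower, edgeR adjusted p = 7.03e-05 and 0.000378). In neither gene did the groups overlap. Casd1, Ccdc191 and Mug1 had 0 counts in all 4 mice at 5 mg/kg and were at least 79.2-fold, 60.5-fold and 38.7-fold lower there. For Casd1 and Ccdc191 that bound leans on mouse 2 at 0.5 mg/kg, a shallow library with 33.6 and 26.8 CPM where the other 4 had at most 6.76 and 4.76. It also rests on 1 probe that passed, of 3 tested for Casd1 and 2 for Ccdc191. Obp2a, an odorant-binding protein of the lipocalin family, had 7.74, 8.30, 4.32, 3.18 and 9.22 CPM at the lower dose and counts in 1 of 4 mice at the higher one.

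The genes already called at 0.5 mg/kg were then followed over the last step, and for this first step a call rests on the fit to all mice alone. Between vehicle and 0.5 mg/kg, 106 genes were called in male mice (0.815% of 13004), 62 raised and 44 lowered. Of these, 35 of the raised and 8 of the lowered genes also passed in the fit to male mice. Without vehicle mouse 2 the fit to all mice called 47 raised and 21 lowered genes, and both fits 29 and 2. A gene was taken to be at plateau where the 95% interval of its log2 change from 0.5 to 5 mg/kg lay between -1 and 1, that is, within 2-fold. This held for 34 of the 106, 19 of the raised and 15 of the lowered genes, and for 28 of the 34 also with the interval from male mice alone. The margin is wider than the first step of some genes at plateau (log2 change 0.64 for Hadha and 0.53 for Hsd17b4). A gene at plateau may therefore still have moved on by as much again. A further 22 moved on in the same direction, 20 raised and 2 lowered. Of the genes called at the first step in both fits, 9 raised and 6 lowered genes were at plateau and 14 and 1 moved on. Another 46 were neither, of which 30 passed over the last step in neither fit. The other 16 passed in the fit to all mice alone, among them Eci1, Cd36, Nceh1 and Hibch, and in 4 the interval lay wholly beyond 2-fold (Aqp3 on the probe called at 0.5 mg/kg, Gm49366, Mbd4 and Vnn1). The last 4 went back (Apaf1, Camk2d, Tmem237 and Usp20), each with 0 counts in the mice at 0.5 mg/kg. A change measured against the mice at 0.5 mg/kg enters the 2 steps with opposite signs, so these counts describe and do not test. The number at plateau was 15 without mouse 4 at 0.5 mg/kg, 22 without mouse 2 at that dose, 22 without mouse 4 on vehicle and 23 without mouse 2 on vehicle. It was 17 in the fit to male mice and 9 when within 1.5-fold was asked.

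At plateau among the raised genes were Acsl1, Ephx2, Dhrs4, Hsdl2, Eci2 and Abcd3, each called at 0.5 mg/kg in both fits. Acsl1, the main long-chain acyl-CoA synthetase of liver (chr8:46471037-46536051), had a vehicle mean of 1550 ± 410 CPM (SD, n = 5), then 2434, 2384, 3199, 4447 and 3347 CPM at 0.5 mg/kg and 4652, 4461, 2692 and 3839 CPM at 5 mg/kg. The treated groups overlapped, and the last step was 1.24-fold with an interval from -0.10 to 0.71 on the log2 scale (edgeR adjusted p = 0.398 and 0.655). Ephx2, the soluble epoxide hydrolase (chr14:66084374-66124500), had 1036 ± 123 CPM on vehicle, 1539, 1467, 1961, 1884 and 1820 CPM at 0.5 mg/kg and 2058, 1878, 1321 and 1697 CPM at 5 mg/kg. Its means at the 2 doses were 1734 ± 219 and 1738 ± 315 CPM (SD, n = 5 and 4), with an interval from -0.32 to 0.33. Dhrs4, a retinal reductase of peroxisomes, had 224 ± 25 and 226 ± 29.9 CPM, and Hsdl2, a peroxisomal dehydrogenase-like protein, 32.2 ± 10.9 and 39.2 ± 9.98 CPM. Eci2, an enoyl-CoA isomerase, and Abcd3, a peroxisomal transporter, had means 1.27-fold and 1.38-fold higher at 5 mg/kg, with intervals whose lower ends were 0.00 and 0.01 and which stayed within 2-fold, so a small further climb is within their range. In Eci2 all 4 mice at 5 mg/kg (318, 352, 347 and 343 CPM) lay above all 5 at 0.5 mg/kg. Hadha, Hsd17b4, Acaa1a, Slc25a20 and Slc27a2, all of fatty acid transport or oxidation, were at plateau as well, of which Acaa1a was called at 0.5 mg/kg in male mice alone too. Without vehicle mouse 2, Hsd17b4 was not called at 0.5 mg/kg (log2 change 0.53 with that mouse and 0.50 without). Slc25a20 had an interval from 0.03 to 0.96, wholly above 0, which reached past 2-fold in the fit to male mice (upper end 1.02). Hadha, the α-subunit of the trifunctional protein, had an interval from 0.19 to 0.80, wholly above 0, and passed in the fit to all mice alone (edgeR adjusted p = 0.0447 and 0.198).

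At plateau among the lowered genes were Gstm2, Lect2, Ly6e and Tra2b, of which Ly6e was not called at 0.5 mg/kg in male mice alone (edgeR adjusted p = 0.143). Gstm2, a glutathione transferase (chr3:107981702-107986453), had 120 ± 39.8 CPM (SD, n = 5) on vehicle, then 43.4, 41.5, 37.1, 22.2 and 27.8 CPM at 0.5 mg/kg and 22.4, 36.9, 54.8 and 42.6 CPM at 5 mg/kg, with overlapping groups and an interval from -0.45 to 0.82. Lect2, a secreted hepatokine, had 245 ± 61.6 CPM on vehicle, 112 ± 14.9 at 0.5 mg/kg and 117 ± 43.0 at 5 mg/kg (SD, n = 5, 5 and 4). Ahsg, Apcs, Ambp, Trf and the complement gene C2, all secreted by liver, were also at plateau, Ahsg and Ambp with intervals wholly below 0 (-0.74 to -0.06 and -0.80 to -0.01) and with all 4 mice at 5 mg/kg below all 5 at 0.5 mg/kg. None of the 5 was called at 0.5 mg/kg without vehicle mouse 2, though the log2 change of Ahsg was nearly the same with and without it (-0.59 and -0.57). That mouse had 535 CPM of Apcs where the other vehicle mice had 86.8 to 128, 5393 CPM of Trf against 2697 to 3324, and 21250 CPM of Ambp against 6668 to 10388, and the interval of Apcs was not within 2-fold in male mice alone.

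Of the 20 genes that were raised at 0.5 mg/kg and rose again, most belong to fatty acid handling, among them Ehhadh, Hsd17b11, Cyp4a10, Cyp4a31, Cyp4a32, Acaa1b, Aldh3a2, Slc27a1, Acot1, Acot2, Decr1, Fabp1, Acadm and Acadl. This grouping was made after the names were seen. The first step is again called in the fit to all mice, and 14 of the 20 passed it in male mice alone as well, but not Mgll, Plin2, Acadm, Acadl, Serinc2 or Acot2. Others were Mgll, Plin2, Cdc34, Serinc2 and Spon2. Plin2 and Serinc2 were called at 0.5 mg/kg on a probe other than the one whose values are given here. Without vehicle mouse 2 the first step of Acadm, Acadl, Acot2, Mgll, Serinc2, Cdc34 and Spon2 was not called in the fit to all mice. Among these the log2 change moved most in Acot2, from 2.37 to 2.12, and in Spon2, from 1.82 to 1.60. Spon2, a secreted matrix protein, had 12.9, 19.2, 37.7, 13.6 and 13.7 CPM at 0.5 mg/kg against 99, 162, 199 and 141 CPM at 5 mg/kg, with a vehicle mean of 5.53 ± 2.78 (SD, n = 5). The 2 genes lowered at 0.5 mg/kg in the fit to all mice that fell again were Hgfac, the activator of hepatocyte growth factor, with 167 ± 69.3, 68.0 ± 21.3 and 28.3 ± 4.84 CPM, and Cdo1, which oxidizes cysteine, with 358 ± 63.6, 220 ± 54.0 and 99.4 ± 25.9 CPM at 0, 0.5 and 5 mg/kg (SD, n = 5, 5 and 4). The first step of Cdo1 did not pass in male mice alone (edgeR adjusted p = 0.423). Without vehicle mouse 2 it was not called in the fit to all mice either, with log2 changes of -0.70 with that mouse and -0.71 without.

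**Figure D4:**
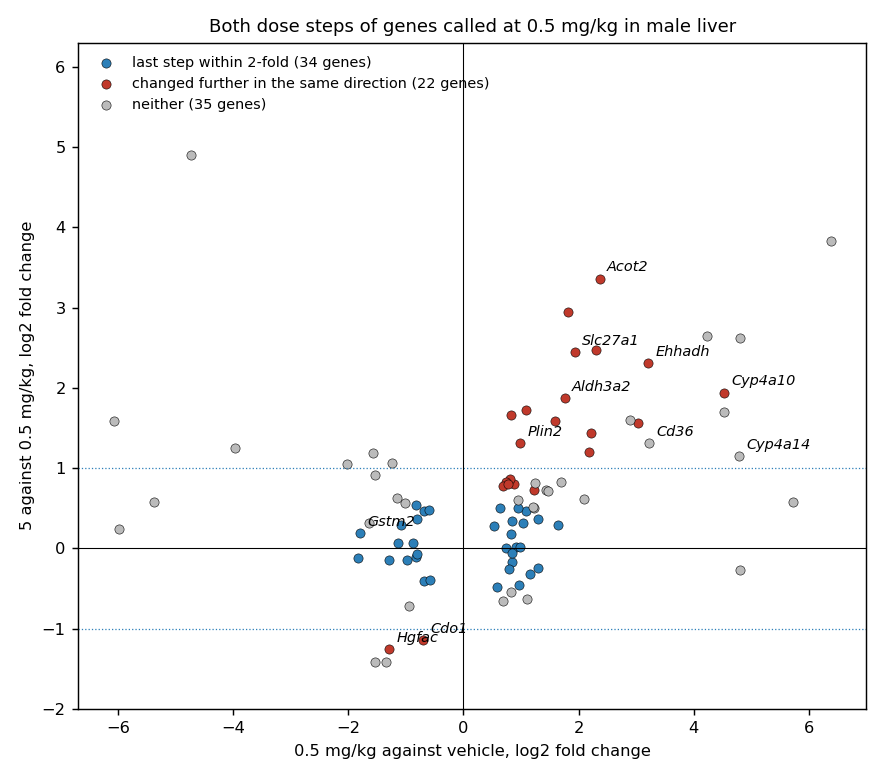
Log2 fold change over the last step against that from vehicle to 0.5 mg/kg for 91 of the 106 genes called at 0.5 mg/kg, on the probe called there, with the axes sharing the mice at 0.5 mg/kg; 15 genes with at most 3 counts at 0.5 mg/kg or a change off the scale are left out. The 34 genes at plateau lie near 0 on the vertical axis, the 22 that moved further lie away from it on the side of their first change, and 35 of the drawn genes are neither.

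Genes chosen in female mice gave a view of the same step that the male mice did not select. Between vehicle and 0.5 mg/kg, 18 genes were called in female mice (0.138%). Of these, 17 were raised and 1, Dph1, was lowered (log2 change -0.87). Over the last step in male mice 9 of these 18 rose and 0 fell (50%, where 1.13% of all genes rose). The median log2 change of the 18 was 0.79 with a range from -0.30 to 2.47, and 17 of 18 were positive. Dph1 (0.03) and Cyp4a12a (0.04) count as positive but were close to 0. Among the 9 were Ehhadh, Cyp4a10, Cyp4a31, Acaa1b, Acot1, Fabp1, Serinc2 and Fam213a. The count of 9 takes a rise on any probe of a gene, and the median and range are from the highest-count probe. On the probe with the smallest p in female mice, Cyp4a10 and Fam213a did not pass both fits (edgeR adjusted p = 0.156 and 0.35 for Cyp4a10, 0.0855 and 0.141 for Fam213a). Without the 2 shallow mice 6 rose. Serinc2 had 24.2, 13.2, 30.2, 43.9 and 16.6 CPM at 0.5 mg/kg and 121, 99.3, 103 and 87.8 CPM at 5 mg/kg in male mice, with no overlap (3.97-fold, edgeR adjusted p = 7.64e-06 and 0.000382).

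The last step itself was then compared between the sexes, and 24 genes differed (0.185% of 13004, by edgeR's test of the difference in the fit to all mice). That fit averages the larger spread of male mice with the smaller one of female mice. No fit to male mice alone can stand beside it here, so its p values may understate the spread of the male step. Slc46a3, a lysosomal transporter, had 17.9, 21.9, 17, 14.1 and 26.3 CPM at 0.5 mg/kg and 0, 1.21, 0 and 0.155 CPM at 5 mg/kg in male mice. Female mice had 23.7, 25.5, 19.7 and 25.7 CPM at 0.5 mg/kg and 24.4, 17.1, 20.4 and 13 at 5 mg/kg. The male groups were far apart and the female groups overlapped (difference of the log2 steps -4.97, standard error 0.71, edgeR adjusted p = 9.03e-05).

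Cyp2b9, which rose in male mice, had 132 ± 37 and 83.4 ± 5.03 CPM in female mice at the lower and the higher dose (SD, n = 4 and 4), and the steps differed by 4.30 on the log2 scale (standard error 0.59, edgeR adjusted p = 9.03e-05). Hao2, a peroxisomal hydroxyacid oxidase, had 0 counts in all 5 male mice at 0.5 mg/kg on 1 of its 2 probes and 2.83, 5.85, 6.75 and 9.58 CPM at 5 mg/kg, against 64.0 ± 26.5 and 35.4 ± 9.07 CPM in female mice (SD, n = 4 and 4; edgeR adjusted p = 0.000114). In both genes male mice at 5 mg/kg stayed under the female level. Scp2, a sterol carrier and peroxisomal thiolase (chr4:108043839-108144998), had 1689, 1671, 1831, 1612 and 1544 CPM at 0.5 mg/kg and 1043, 1411, 697 and 1199 CPM at 5 mg/kg in male mice, and 183 ± 37.2 and 370 ± 50.2 CPM in female mice (SD, n = 4 and 4). On this probe the male step went down and the female step up (difference of the log2 steps -1.63, standard error 0.26, edgeR adjusted p = 0.00062). Of the 4 probes of Scp2 tested, 1 passed both fits for the male step.

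Pcp4l1 had 3.22, 2.26, 11.7, 4.31 and 5.07 CPM in male mice at 0.5 mg/kg and 0, 0, 0 and 0.155 at 5 mg/kg, against 8.43 ± 1.70 and 8.26 ± 4.57 CPM in female mice (SD, n = 4 and 4; edgeR adjusted p = 0.000632). The count of 24 was not steady. It was 56 without the 2 shallow male mice, 47 without mouse 2 at 0.5 mg/kg, and 55, 83 and 100 without mouse 1, mouse 2 and mouse 4 at 5 mg/kg.

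**Figure D5:**
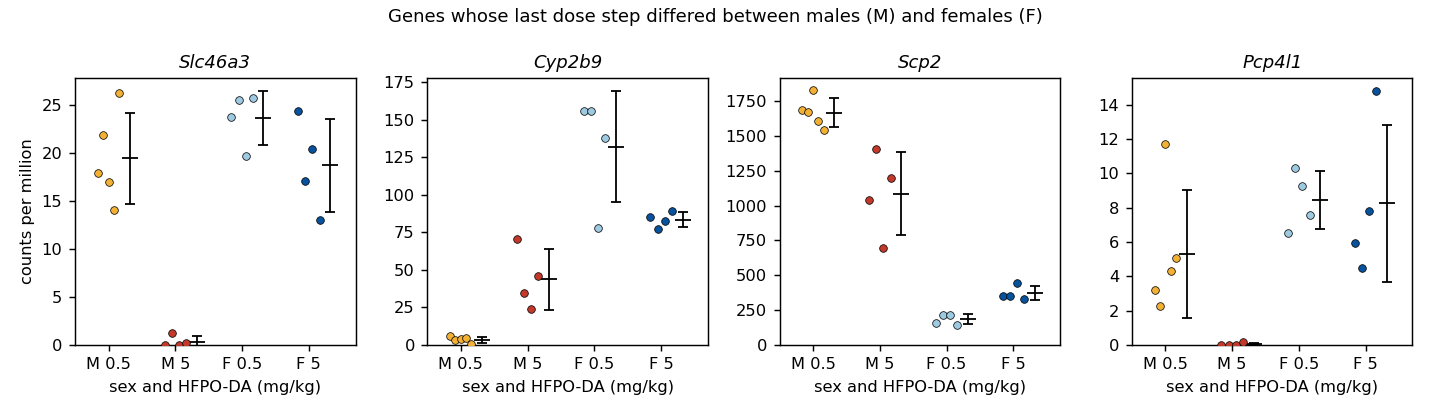
CPM of Slc46a3, Cyp2b9, Scp2 and Pcp4l1 in each mouse (points) given 0.5 or 5 mg/kg in male (5 and 4 mice) and female mice (4 and 4); the horizontal lines give the mean and the whiskers the SD. Slc46a3 and Pcp4l1 are close to 0 in male mice at 5 mg/kg and not in female mice, and Scp2, on the probe drawn, is lower at 5 mg/kg in male mice and higher in female mice.

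Markers of the cells that a liver section holds were read beside these results. The summed level of 8 hepatocyte markers was 19768 to 23475 CPM at 0.5 mg/kg and 12648 to 16863 CPM at 5 mg/kg, without overlap. Of the 8, 3 fell, Tat and Serpina1e among them, and the others, Alb among them, did not pass both fits. A large part of the fall in the sum came from Serpina1e alone, also on the list of male-biased genes, so the sum is no even measure of the 8. The part of the summed level in the fall of the plasma protein and amino acid genes was not tested. The 10 stellate cell and fibroblast markers summed to 158 to 1124 CPM (median 215) at 0.5 mg/kg and 406 to 611 CPM (median 499) at 5 mg/kg. Their median on vehicle was 231 CPM. The 12 Kupffer cell markers summed to 176 to 404 CPM (median 269) and 189 to 522 CPM (median 274). The 10 endothelial markers summed to 426 to 553 CPM (median 459) and 393 to 535 CPM (median 465). Each of these lists held 0 genes called in both fits. Markers of cholangiocytes, neutrophils, erythroid cells, exocrine pancreas and skeletal muscle likewise held 0 calls, and of the lymphocyte markers 1 fell.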

How the data were processed

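TempO-Seq libraries of liver sections were sequenced, and the submitters' processing notes name bcl2fastq 2.17.1.14 and Bowtie. The genome build is not given in the sources used here. The authors left out 3 of 40 mice for depth or probes seen and deposited raw counts per probe, without normalization, for 30146 probes. Probes were kept by filterByExpr (18570 of 13004 genes in all mice, 16103 of 11389 genes in male mice), counts were normalized by TMM, and the earlier quasi-likelihood method of edgeR 4.0.16 (limma 3.58.1, R 4.3.3) was fitted with a mean per group of sex and dose to all 37 mice and to the 19 male mice. The threshold was an adjusted p of 0.10. DESeq2 1.42.0, the study's tool, was an alternative. Tables were handled in Python 3.11.15. Coordinates of genes are from GENCODE M21 (GRCm38), in which 21302 of 21450 symbols were found. Scripts were tested on simulated data. Intervals treat mice as replicates.

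The genes named were the 12 raised and 12 lowered with the largest change (called in both fits, no overlap, at least 5 CPM in the higher group), the 10 at plateau with the smallest p at 0.5 mg/kg, up to 4 per list, the 6 that differed most between the sexes, genes called at 0.5 mg/kg in female mice, and a fixed set of liver genes. Other names, the plateau members beyond these and the further members of lists, were given after their values were seen. The members and the 28 lists were chosen with earlier results of these data known. Results of some single genes are left out of the text but stay in the counts. No set test was made.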

Additional observations from a re-analysis of the deposited data

Results flagged for a closer look

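Among 60 of the genes named, 114 groups of values were checked for a mouse far from the others of its group, and 15 (13.2%) held one. The limits used flag about 1 in 20 when values follow a normal curve. CPM are skewed and some groups held 0 in all mice but 1, so the 2 shares cannot be compared. Each was the highest mouse. At 0.5 mg/kg these were mouse 1 for Fabp3 (0.322 CPM), mouse 5 for Ly6d (10.1 CPM), Col27a1 (54.7 CPM) and Cyp7a1 (546 CPM), mouse 4 for Aqp3 (6.57 CPM) and Ehhadh (5297 CPM), mouse 3 for Cdkn1a (11.6 CPM), and mouse 2, a shallow library, for Casd1 (33.6 CPM) and Ccdc191 (26.8 CPM). At 5 mg/kg they were mouse 1 for Gm10681 (6.13 CPM) and Cyp2b10 (36.3 CPM), mouse 2 for Slc46a3 (1.21 CPM) and Cyp2c54 (420 CPM), mouse 3 for Obp2a (0.375 CPM) and mouse 4 for Pcp4l1 (0.155 CPM).

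The last step differed between male and female mice in 24 genes by edgeR's test of the difference. Among those with the smallest p, the male step minus the female step was -4.97 for Slc46a3, 4.30 for Cyp2b9, -1.63 for Scp2 and -6.50 for Pcp4l1 on the log2 scale, and Hao2, with 0 counts in the male mice at 0.5 mg/kg, had an adjusted p of 0.000114 by edgeR.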

How the results depend on the processing

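No paired analysis was possible because replicate numbers were given in accession order and pair no mice. In the fit to all mice, the 545 raised and 917 lowered genes became 129 and 336 in male mice only, 126 and 198 in the 9 male mice alone, 264 and 553 at a threshold of 0.05, and 102 and 236 when tested against a 1.5-fold change. Raised genes were 287 without the 2 shallow male mice and 911 with DESeq2. Leaving out each mouse gave 344 to 537 raised and 625 to 1182 lowered. Under both fits, the 129 raised genes became 195 with size factors, 79 without the 2 shallow mice and 267 with edgeR's current default quasi-likelihood method, and 77 to 132 when each mouse was left out (lowered, 207 to 360). The 34 genes at plateau became 17 in male mice only, 9 within 1.5-fold and 15 to 38 leaving out each mouse. The 24 genes that differed between the sexes became 67 with no filter, 56 without the shallow mice, 14 with the current default method, 137 with DESeq2 and 22 to 100 leaving out each mouse. The 9 raised genes chosen in female mice were 6 without the shallow mice and 7 to 11 leaving out each mouse. No named gene that was called changed direction under any setting run. Of 102 named genes called in both fits, 24 no longer passed both without the 2 shallow mice, among them Scp2, Cyp7a1, Cyp2a4, Hao2, Cyp4a10, Cyp4a31, Acaa1b, Bbc3, Itih4, Foxa3, Pmvk, Hsp90b1 and Pdia6, and 24 without mouse 3 at 5 mg/kg. Calls in the ω-hydroxylation list went from 4 raised genes to 1, in apolipoproteins from 9 lowered to 3 and in the urea cycle list from 19 to 11 without the shallow mice. Leaving out vehicle mouse 2 was chosen after seeing the data. The cause was not tested. Depth limits genes near 0 counts, whose folds are bounds.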
